A study of Arabidopsis thaliana with 18 samples.

Results

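Anthocyanins, the red to purple pigments of the flavonoid pathway, are built in the cytosol and stored in the vacuole. The pathway runs through chalcone and dihydroflavonol intermediates. Dihydroflavonol reductase (DFR) takes the first step that belongs to anthocyanins and proanthocyanidins rather than to flavonols, and the unstable anthocyanidins are then made stable by attaching sugars and acyl groups. In Arabidopsis these late genes are switched on together by complexes of MYB, bHLH and WD40 proteins, and the pigment is best known from shoots under strong light, cold, sugar or shortage of nutrients, whereas roots usually hold little of it.

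The 5 genes described here are DFR and 4 genes of the decorating enzymes, out of 13350 genes with at least 1 probe set annotated to no other gene on the Affymetrix ATH1 array. They are UGT78D2, which puts a glucose on the 3-position of flavonols and anthocyanidins, UF3GT (also UGT79B1), which adds a xylose to that glucose, AT4G14090 (UGT75C1 below), which puts a glucose on the 5-position of anthocyanins, and AT5MAT, which puts a malonyl group on that second glucose. They were selected on their signals on these same arrays, and are named one by one, as DFR's probe set and the probe sets annotated only to the other 4. Which comparison of the signals brought them forward is not recorded, so every difference between groups is given for them as a description, with its standard error (SE). Counts of calls from the fit over all probe sets are printed for the 5 beside the share of all probe sets called, and they are no test of these genes. Each gene had 1 probe set, and all 5 were on the array and in the fit.

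Root RNA of Arabidopsis seedlings was measured on 18 one-colour arrays, 3 biological replicates in each of 6 groups. The genotypes were ubc13A, a mutant labelled ubc13-/- and named for a ubiquitin-conjugating enzyme gene, CsUBC13-OE, which overexpresses the cucumber gene CsUBC13, and Col-0 wild type, and all were labelled with the strain Col-0. Seedlings aged 10 days were moved to ES medium made without FeEDTA, or to the same medium with it, and sampled 3 days later. The promoter of the transgene, the number of independent lines and the number of plants in a sample were not given in the sources used here.

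Array medians lay between 189.7 and 210.95 signal units, and arrays correlated with one another at r of 0.958 to 0.991. The array named only 1 probe set for the mutated gene, and it also reads its near-identical copy UBC36, so it does not check the genotype. It averaged 2725 in ubc13A, 4233 in CsUBC13-OE and 3615 in Col-0 without Fe. Of 10 listed root markers EXPA7 alone was measured by its own probe set, which read between 328 and 866 on all arrays. The number of arrays limits the precision: the median SE of a log2 difference between 2 groups of 3 arrays was 0.18.

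All 5 genes were lower in ubc13A roots than in Col-0 roots at both Fe supplies, and CsUBC13-OE roots lay between these genotypes in most cases. DFR had the largest difference of the 5, at -2.82 (SE 0.52) on the scale log2(signal + 16) without Fe and -1.91 (SE 0.52) with Fe. Without Fe the 3 ubc13A arrays lay below the 3 Col-0 arrays for each of the 5 genes, as for 7.42% of all probe sets. With Fe this held for DFR, UF3GT and UGT75C1, and for 6.07% of all probe sets, while AT5MAT and UGT78D2 overlapped between the genotypes. Since the genes were selected on these arrays, nothing is read from these counts. Whole roots were sampled, so less RNA per cell and fewer cells of an expressing type cannot be told apart. The ubc13A samples also carry a separate run of sample numbers from those of the other genotypes. Any difference in handling along that split cannot be told apart from genotype, and whether there was one was not tested.

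**Figure D1:**
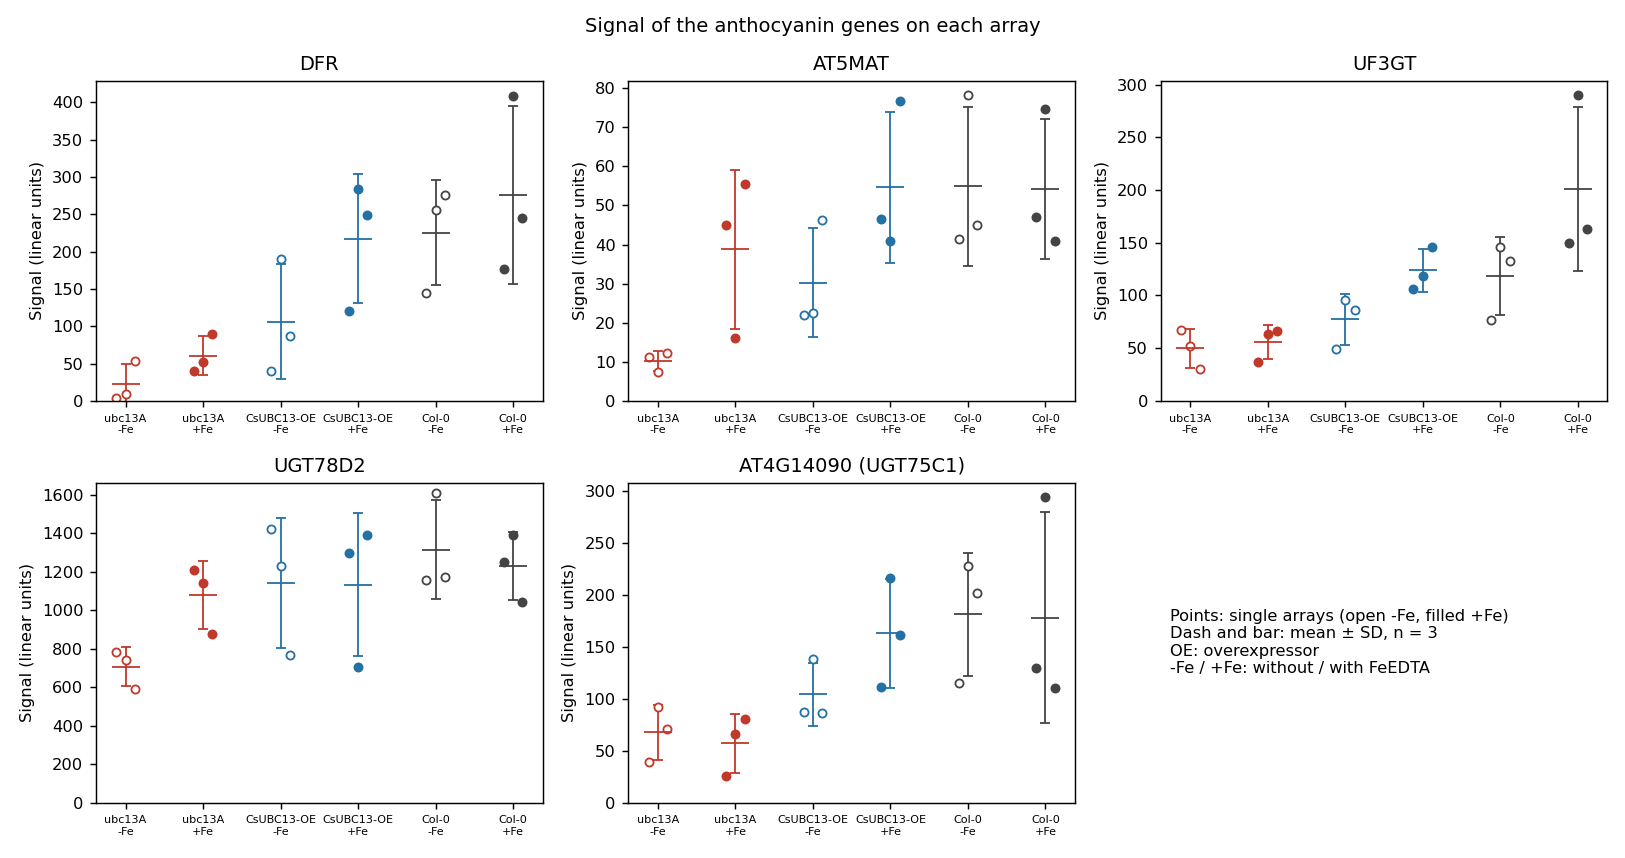
Signal of the 5 genes on each array, in linear units, by genotype and Fe supply, with open points without Fe, filled points with Fe, and the mean ± SD of 3 arrays as a dash and a bar. Vertical scales differ between panels and levels are not comparable between probe sets. The ubc13A arrays of DFR reach at most 90.0, and the Col-0 arrays start at 144.7.

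DFR reduces dihydroflavonols to leucoanthocyanidins, the branch point towards the pigments. Without Fe its signal was 4.5, 9.0 and 54.0 in ubc13A, 39.7, 190.4 and 87.1 in CsUBC13-OE, and 144.7, 256.1 and 275.3 in Col-0. With Fe it was 40, 51.5 and 90.0 in ubc13A, 120.2, 283.2 and 248.7 in CsUBC13-OE, and 176.0, 407.8 and 244.9 in Col-0. All 6 ubc13A arrays were below all 6 Col-0 arrays, and the CsUBC13-OE arrays overlapped with both other genotypes. The 2 lowest arrays, both of ubc13A without Fe, are so dim that they are not shown to lie above background, and the log2(signal + 16) scale understates a fold of a dim gene. DFR averaged 22.5 ± 27.4 in ubc13A and 225 ± 70.5 in Col-0 without Fe, and 60.5 ± 26.2 in ubc13A and 276 ± 119 in Col-0 with Fe (SD, n = 3 each). In CsUBC13-OE it averaged 106 ± 77.1 without Fe and 217 ± 85.9 with Fe. From high to low the group means ran from Col-0 with Fe, Col-0 without Fe, CsUBC13-OE with Fe, CsUBC13-OE without Fe and ubc13A with Fe to ubc13A without Fe, and the arrays of each group overlapped with those of the next.

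UGT78D2 acts on flavonols as well as on anthocyanidins, so it is the least particular to the pigment of the 5. Without Fe its signal was 784.3, 739.8 and 591.7 in ubc13A, 1423.0, 1228.9 and 766.0 in CsUBC13-OE, and 1158.6, 1611.3 and 1173.0 in Col-0. With Fe it was 1211.1, 1142.9 and 876.6 in ubc13A, 1294.6, 706.0 and 1392.8 in CsUBC13-OE, and 1252.7, 1390.9 and 1042.8 in Col-0. The group that stood apart was ubc13A without Fe, whose 3 arrays were below those of Col-0 without Fe and of ubc13A with Fe but overlapped with CsUBC13-OE, where 1 array was at 766.0. The difference of ubc13A from Col-0 was -0.88 (SE 0.26) without Fe and -0.19 (SE 0.26) with Fe. The other 5 group means were within 1077 to 1314, and arrays of neighbouring groups in that order overlapped.

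UF3GT adds the xylose that is typical of Arabidopsis anthocyanins. Without Fe its signal was 67.1, 52.3 and 30.6 in ubc13A, 49.6, 95.6 and 86.6 in CsUBC13-OE, and 76.5, 145.6 and 132.9 in Col-0. With Fe it was 36.9, 63.0 and 66.4 in ubc13A, 106.3, 118.8 and 146.0 in CsUBC13-OE, and 149.8, 290.4 and 162.9 in Col-0. The 6 ubc13A arrays lay within 30.6 to 67.1 whatever the supply, and all were below the 6 Col-0 arrays. With Fe the 3 genotypes did not overlap, in the order ubc13A, CsUBC13-OE, Col-0. The difference of ubc13A from Col-0 was -1.57 (SE 0.30) with Fe and -1.02 (SE 0.30) without Fe. In Col-0 its arrays without Fe were all below those with Fe, while in ubc13A they overlapped between the supplies.

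UGT75C1 works on anthocyanins only after the first sugar is in place. Without Fe its signal was 39.1, 92.1 and 71.1 in ubc13A, 87.1, 138.5 and 86.3 in CsUBC13-OE, and 114.7, 227.4 and 201.1 in Col-0. With Fe it was 25.2, 66.0 and 80.1 in ubc13A, 110.9, 216.1 and 160.8 in CsUBC13-OE, and 129.1, 294.1 and 110.0 in Col-0. All 6 ubc13A arrays were below the 6 Col-0 arrays, and with Fe they were also below the 3 CsUBC13-OE arrays. The difference of ubc13A from Col-0 was nearly equal at the 2 supplies, -1.24 without Fe and -1.38 with Fe (SE 0.40 each).

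AT5MAT completes the main pigment by malonylation, and its probe set was dim throughout. Without Fe its signal was 11.2, 7.4 and 12.3 in ubc13A, 21.9, 22.6 and 46.3 in CsUBC13-OE, and 41.3, 78.3 and 45.1 in Col-0. With Fe it was 44.9, 16 and 55.4 in ubc13A, 46.5, 40.8 and 76.7 in CsUBC13-OE, and 47.0, 74.6 and 41.0 in Col-0. The 3 ubc13A arrays without Fe were the lowest of the 18, and they too are not shown to lie above background. With Fe 1 of the 3 ubc13A arrays, at 16, was below all Col-0 arrays, and the other 2 were among them. The difference of ubc13A from Col-0 was -1.40 (SE 0.31) without Fe and -0.41 (SE 0.31) with Fe, and the value with Fe was -0.06 without ubc13A with Fe replicate 2.

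Read as a group, the median difference of the 5 genes between ubc13A and Col-0 was -1.24 without Fe and -1.38 with Fe, where the median over all 22746 probe sets tested was 0.04 without Fe and 0.03 with Fe. Signals of all 6 ubc13A arrays were below all 6 Col-0 arrays for 3 of the 5 genes, DFR, UF3GT and UGT75C1, and for 0.488% of all probe sets. Against the 6 CsUBC13-OE arrays this held for 0 of the 5 genes and for 0.391% of all probe sets. Within 1 supply the ubc13A arrays were below the Col-0 arrays for 5 of 5 genes without Fe, against 7.42% of all probe sets, and for 3 of 5 with Fe, against 6.07%. Because the genes were named with these arrays in view, nothing is read from those counts. The limma fit over all probe sets, with Benjamini-Hochberg adjustment at a threshold of 0.05, called 0 of the 5 in any of 11 comparisons. In ubc13A against Col-0 it called 0.0484% of all probe sets without Fe and 0.0132% with Fe. At an unadjusted p under 0.05 the same fit had 0 to 5 of the 5, by comparison, all lower. The share of all probe sets lower at that threshold ran between 1.31% and 9.74%. The 5 of 5 were in ubc13A against Col-0 without Fe, beside 4.59%. The 9.74% was in the Fe response of ubc13A, beside 3 of 5. Since the rule used these signals, nothing is read from the calls or from these counts. Under some other settings DFR or UF3GT was called here, as the closing part lists.

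**Figure D2:**
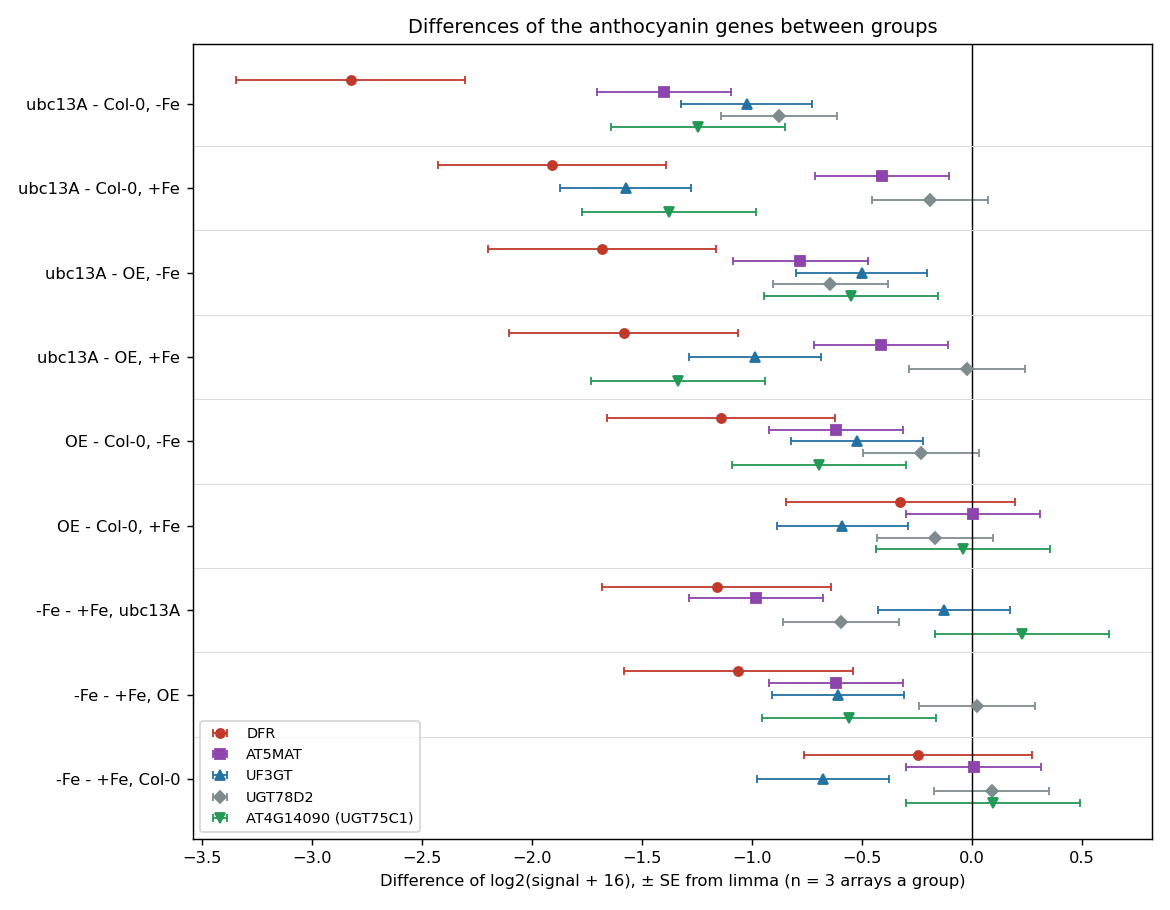
Differences of log2(signal + 16) between groups for the 5 genes, as points with ± SE from the limma fit, with 3 arrays a group; OE stands for CsUBC13-OE, and -Fe and +Fe for medium without and with FeEDTA. In both ubc13A against Col-0 comparisons the 5 points lie left of 0, with DFR furthest at -2.82 and -1.91.

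Against CsUBC13-OE, ubc13A was lower for all 5 genes at both supplies, mostly by less than against Col-0. DFR differed by -1.68 (SE 0.52) without Fe and -1.58 (SE 0.52) with Fe. With Fe, UGT75C1 differed by -1.33 (SE 0.40) and UF3GT by -0.99 (SE 0.30), and the arrays of DFR, UF3GT and UGT75C1 did not overlap between the genotypes, as for 5.46% of all probe sets. UGT78D2 differed by -0.02 (SE 0.26) with Fe and by -0.64 (SE 0.26) without Fe. Without Fe only the AT5MAT arrays did not overlap, as for 7.23% of all probe sets. The median of the 5 was -0.64 without Fe and -0.99 with Fe, with 0.03 over all probe sets in both. The fit called 0 of 5, against 0.0484% of all probe sets at each supply.

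CsUBC13-OE against Col-0 gave smaller values. Without Fe all 5 were lower, DFR at -1.14 (SE 0.52), UGT75C1 at -0.69 (SE 0.40), AT5MAT at -0.62 (SE 0.31), UF3GT at -0.52 (SE 0.30) and UGT78D2 at -0.23 (SE 0.26), and the arrays of all 5 overlapped, where 4.18% of all probe sets had lower CsUBC13-OE arrays without overlap. With Fe the differences of DFR, AT5MAT, UGT78D2 and UGT75C1 were within 1 SE of 0, and UF3GT was at -0.59 (SE 0.30), the 1 gene of the 5 without overlap, as for 3.11% of all probe sets. The median was -0.62 without Fe and -0.17 with Fe, against 0.01 over all probe sets in both. The fit called 0 of 5, and 0.0132% of all probe sets, at each supply. Single arrays weighed on these values. Without CsUBC13-OE without Fe replicate 1, DFR was at -0.68 and UF3GT at -0.29, without Col-0 without Fe replicate 2 AT5MAT was at -0.39, and without Col-0 with Fe replicate 2 UF3GT with Fe was at -0.31.

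The Fe response, the level without Fe minus the level with Fe in one genotype, differed from gene to gene. In ubc13A it was -1.16 (SE 0.52) for DFR, -0.98 (SE 0.31) for AT5MAT and -0.60 (SE 0.26) for UGT78D2, but -0.13 (SE 0.30) for UF3GT and 0.23 (SE 0.40) for UGT75C1. In CsUBC13-OE it was -1.06 (SE 0.52) for DFR, -0.62 (SE 0.31) for AT5MAT, -0.61 (SE 0.30) for UF3GT and -0.56 (SE 0.40) for UGT75C1. There UGT78D2 was at 0.02 (SE 0.26). In Col-0 only UF3GT was away from 0 by more than its SE, at -0.68 (SE 0.30), and DFR was at -0.25 (SE 0.52). Without CsUBC13-OE without Fe replicate 1 the response in CsUBC13-OE was -0.60 for DFR and -0.37 for UF3GT. Without CsUBC13-OE with Fe replicate 3 it was -0.40 for AT5MAT, and without replicate 2 of that group -0.35 for UGT75C1. The response of UF3GT in Col-0 was -0.40 without Col-0 with Fe replicate 2 and -0.43 without Col-0 without Fe replicate 1. In ubc13A the responses of DFR and AT5MAT were -2.01 and -1.67 at a pseudocount of 1, and -0.55 and -0.45 at 64.

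In Col-0 roots, then, 4 of the 5 genes had responses smaller than their errors. The AT5MAT and UGT78D2 arrays of ubc13A did not overlap between the supplies, as for 12.8% of all probe sets in that direction. UF3GT arrays did not overlap between the supplies in CsUBC13-OE, as for 11.6%, nor in Col-0, as for 12.9%. Medians of the 5 were -0.60 in ubc13A, -0.61 in CsUBC13-OE and 0.01 in Col-0, against -0.04 over all probe sets in each. The Fe responses called 3.72% of all probe sets in ubc13A, 4.33% in CsUBC13-OE and 4.26% in Col-0, and 0 of the 5 genes in any of them.

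The response of ubc13A minus that of Col-0 was -0.99 (SE 0.43) for AT5MAT, -0.91 (SE 0.73) for DFR, -0.68 (SE 0.37) for UGT78D2, 0.13 (SE 0.56) for UGT75C1 and 0.55 (SE 0.42) for UF3GT, so the 5 genes took both signs. The response of CsUBC13-OE minus that of Col-0 was -0.82 (SE 0.73) for DFR, -0.65 (SE 0.56) for UGT75C1 and -0.62 (SE 0.43) for AT5MAT. It was -0.06 (SE 0.37) for UGT78D2 and 0.07 (SE 0.42) for UF3GT. Both use the same Col-0 arrays. limma called 0 of 5 in both, against 0% of all probe sets for ubc13A and 0.0044% for CsUBC13-OE. With 1 array left out, the ubc13A value of DFR ran between -1.46 (without ubc13A without Fe replicate 3) and -0.57 (without replicate 1 of the same group), and the CsUBC13-OE value of DFR between -1.30 and -0.35 (without CsUBC13-OE without Fe replicates 2 and 1). UF3GT for ubc13A was at 0.27 without Col-0 with Fe replicate 2.

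Arrays of one group also differed, on some arrays in the same direction for all 5 genes. In Col-0, replicate 2 was above its group mean for 5 of 5 genes at both supplies, and for UGT75C1 with Fe it exceeded the mean by 0.80 in log2(signal + 16). Replicate 3 of CsUBC13-OE with Fe was above its mean for all 5 as well, while replicate 1 of Col-0 without Fe and replicate 3 of Col-0 with Fe were above it for 0 of 5. DFR had the widest deviations, 1.09 in ubc13A without Fe replicate 3 and 0.96 in CsUBC13-OE without Fe replicate 2. Over the 18 deviations from group means DFR followed UGT75C1 most closely, at Pearson r = 0.68, then UF3GT at 0.38 and AT5MAT at 0.29, and ran against UGT78D2 at -0.32. UF3GT and UGT75C1 went together at 0.61, and UGT78D2 had r between -0.08 and 0.11 with the 3 others. Over the 18 array values, which also hold the genotype differences, the r of DFR was 0.83 with UGT75C1, 0.81 with UF3GT, 0.78 with AT5MAT and 0.45 with UGT78D2.

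**Figure D3:**
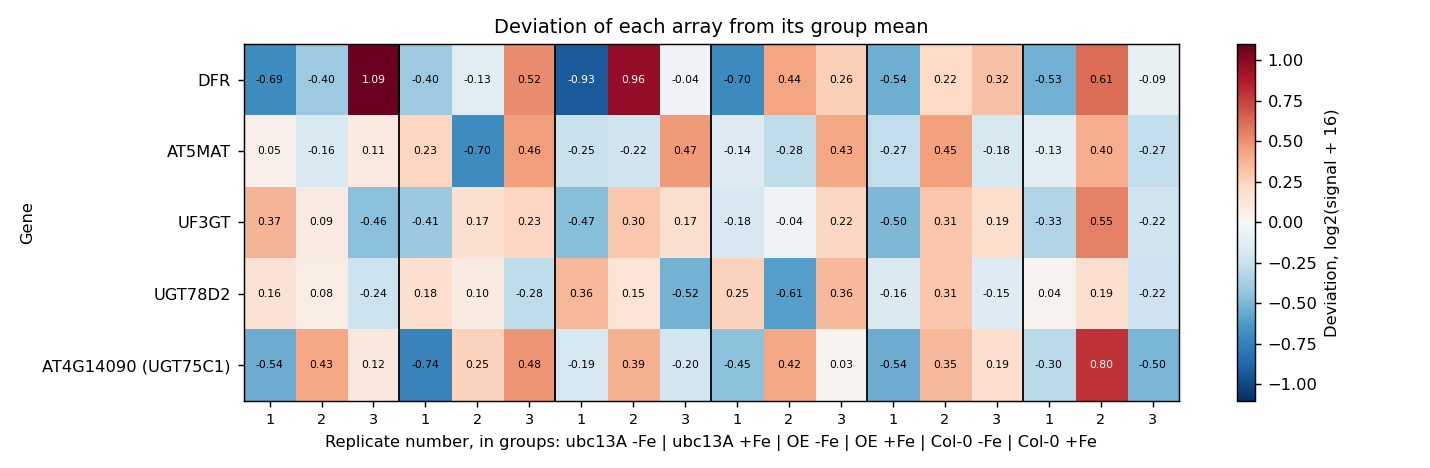
Deviation of each array from the mean of its group in log2(signal + 16), for the 5 genes in rows and the 18 arrays in columns, with red above and blue below the group mean and vertical lines between groups. Replicate 2 of Col-0 is red in all 5 rows at both supplies, and UGT78D2 often has the colour opposite to DFR.

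Of 8753 genes with a mean signal of at least 50, COR15A, a cold-regulated gene whose protein protects chloroplast membranes, had the pattern most like DFR, at r = 0.84 over 18 arrays. After it came AT4G28940 (0.83), the chloroplast-encoded cemA (0.81), AT1G17830 (0.80), AT3G61920 (0.80), AT1G62500 (0.77), AT4G21865 (0.77), AR781 (0.77), the photosystem I subunit gene PSAE-1 (0.76) and AT1G53070 (0.75). Among these genes 2 had a higher r with DFR than UGT75C1, 3 than UF3GT, 5 than AT5MAT and 424 than UGT78D2. The 5 anthocyanin genes were selected on these arrays, so nothing is read from these counts. AT5MAT, with group means of 10.3 to 54.9, was also compared without the cut on signal. COR15A had signals of 22.0, 33.6 and 37.3 in ubc13A, 109.8, 137.9 and 73.8 in CsUBC13-OE, and 125.8, 237.5 and 125.8 in Col-0 without Fe. Without Fe all 3 ubc13A arrays of COR15A were below those of both other genotypes. Arrays lay so for 7.42% of all probe sets against Col-0 and for 7.23% against CsUBC13-OE. The difference from Col-0 without Fe was -1.89 (SE 0.34), which limma did not call (adjusted p = 0.0633). With Fe the ubc13A arrays, at 31.7, 74.5 and 97.6, overlapped with CsUBC13-OE, whose lowest was 88.7. They were just below Col-0, whose lowest was 97.8, as for 6.07% of all probe sets. That difference from Col-0 was -0.94 (SE 0.34, limma adjusted p = 0.391). COR15A was picked for its likeness to DFR on these arrays, so these values are a description and no test.

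Within groups, the genes whose deviations went most with those of the 5 were AT5G67630, AT3G10930, STZ, AT3G27150 and AT4G29780, with a mean r of 0.56 to 0.57. STZ encodes a zinc finger repressor known to respond quickly to many stresses. Its signal was 348.2, 1330.0 and 662.4 in Col-0 without Fe and 582.7, 2170.0 and 847.5 in Col-0 with Fe. It was highest in replicate 2, where all 5 anthocyanin genes were above their means, and STZ was picked for such joint deviations. In ubc13A it was 897.6, 775.9 and 930.2 without Fe and 727.2, 918.6 and 1219.1 with Fe. The difference of STZ between ubc13A and Col-0 was 0.35 without Fe and -0.13 with Fe (SE 0.61 each, limma adjusted p = 0.882 and 0.966). The part of STZ in the values of the 5 genes was not tested.

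Green tissue markers were followed because anthocyanins are mostly a shoot pigment. Of 12 such markers 4 had a probe set of their own, LHCB4.1, PSAE-1, RCA and PRK, and none of the 4 was at 0. Their summed signal was lowest, median and highest at 1857, 2402 and 2544 in ubc13A, 1911, 2196 and 2637 in CsUBC13-OE, and 2436, 2737 and 2746 in Col-0 without Fe. With Fe it was 2232, 3133 and 3140 in ubc13A, 3778, 3957 and 4017 in CsUBC13-OE, and 3291, 3350 and 4078 in Col-0. The sum was thus lower in ubc13A than in Col-0 with Fe, without overlap, as were DFR, UF3GT and UGT75C1. Arrays lay so for 6.07% of all probe sets. Without Fe 1 ubc13A array overlapped with Col-0. Taken singly with Fe, LHCB4.1 and PRK overlapped between ubc13A and Col-0. RCA and PSAE-1 did not, PSAE-1 narrowly at 771.2 against 773.7. In that comparison limma called none of the 4 (adjusted p = 0.551 to 0.604). PSAE-1 is also among the genes listed above as most like DFR, and it enters the sum. The r of the sum over the 18 arrays was 0.66 with DFR, 0.61 with UF3GT, 0.58 with UGT75C1, 0.51 with AT5MAT and 0.32 with UGT78D2. Over deviations from group means it was 0.53 with DFR and 0.71 with UGT75C1, but 0.21 with UF3GT, 0.13 with UGT78D2 and -0.12 with AT5MAT. In CsUBC13-OE, LHCB4.1 and RCA fell without Fe, by 0.89 and 0.94 in log2 (limma adjusted p = 0.0015 and 0.0026). The part of these transcripts in the values of the 5 genes was not tested.

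Other genes of flavonoid metabolism were taken from 6 lists of 49 genes, of which 5 were read by their own probe sets, CHIL, BAN, UGT78D1, UGT78D3 and UGT89C1, while 2 shared a probe set with each other and 42 were not analysed here. In the limma fit 0 of 5 passed in any of the 11 comparisons, in either direction. The pathway lists were drawn up with earlier results of these data known, so nothing is read from the counts that follow. At an unadjusted p under 0.05 in limma, CHIL, UGT89C1 and UGT78D3 were lower in ubc13A than in Col-0 without Fe. They were 3 of the 5, against 4.59% of all probe sets. CHIL and UGT89C1, 2 of the 5, were lower in ubc13A than in CsUBC13-OE without Fe, against 3.31%. UGT78D3, 1 of the 5, was lower for the response of CsUBC13-OE minus that of Col-0, against 1.32%, and its signals of 1.8 to 9.5 are not shown to lie above background.

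CHIL, whose protein assists chalcone synthase, had signals of 1123.6, 879.5 and 1030.9 in ubc13A, 2091.9, 1692.0 and 1627.4 in CsUBC13-OE, and 2380.1, 1702.9 and 1348.4 in Col-0 without Fe. The ubc13A arrays were below all arrays of the other 2 genotypes there, as for 7.42% of all probe sets against Col-0 and 7.23% against CsUBC13-OE. The difference was -0.80 (SE 0.21, limma adjusted p = 0.164) from Col-0 and -0.82 (SE 0.21, adjusted p = 0.235) from CsUBC13-OE. With Fe it differed from Col-0 by -0.44 (SE 0.21, adjusted p = 0.522). UGT89C1, a flavonol rhamnosyltransferase gene, was also lowest in ubc13A without Fe, with a mean of 995 ± 102 in ubc13A and 1495 ± 209 in Col-0 (SD, n = 3 each), a difference of -0.57 (SE 0.20, adjusted p = 0.302). UGT78D1, the rhamnosyltransferase relative of UGT78D2, differed by -0.50 (SE 0.29, adjusted p = 0.556). BAN, which diverts anthocyanidins into proanthocyanidins in the seed coat, read 1.7 to 27.8, levels that are likewise not shown to lie above background. The anthocyanin acyltransferases AT1G03495 and AT1G03940 shared 1 probe set, which differed between ubc13A and Col-0 by -1.71 without Fe and -1.61 with Fe (SE 0.53 each, adjusted p = 0.233 and 0.356). That probe set was picked out after its values were seen.

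**Figure D4:**
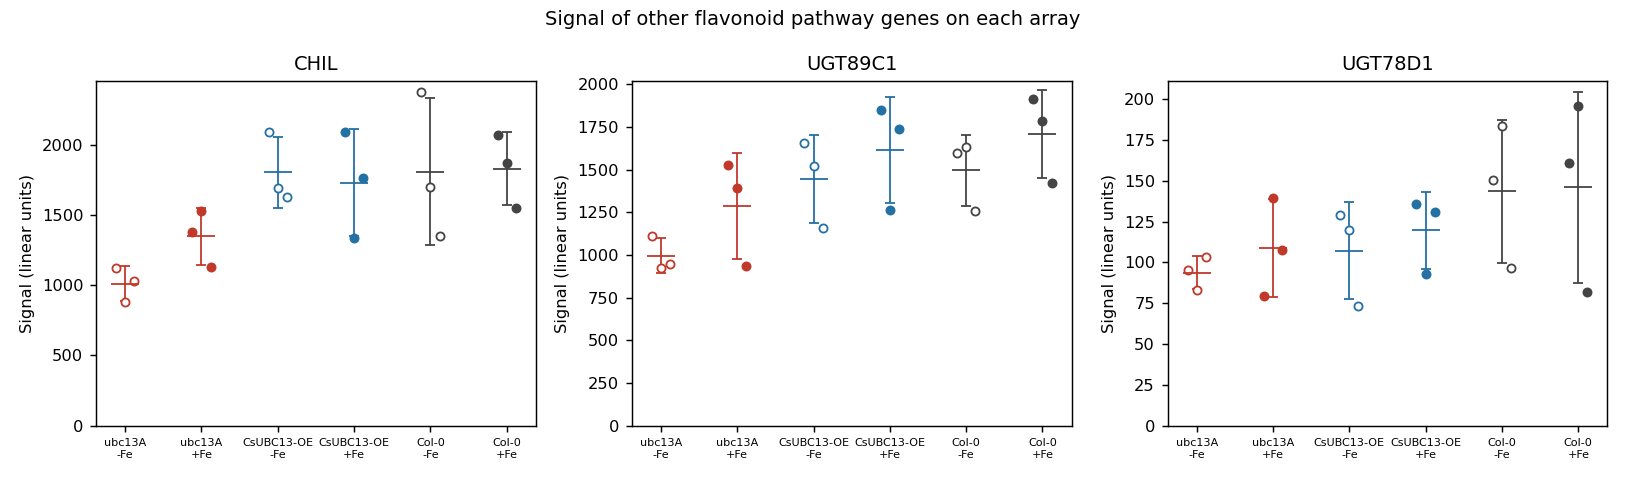
Signal of CHIL, UGT89C1 and UGT78D1 on each array, in linear units, with open points without Fe, filled points with Fe, and the mean ± SD of 3 arrays as a dash and a bar. The CHIL arrays of ubc13A without Fe lie between 879.5 and 1123.6, below those of CsUBC13-OE and Col-0 without Fe. Arrays lie so for 7.23% and 7.42% of all probe sets.

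UF3GT, UGT78D2 and UGT75C1 belong to the UDP-glycosyltransferase family, of which 52 genes were measured. Ranked from the most negative difference between ubc13A and Col-0 with Fe, UF3GT was at place 1, UGT75C1 at 2 and UGT78D2 at 17, and the family median was -0.11. Without Fe, UGT84A1 was at place 1, with -1.88 (SE 0.25, limma adjusted p = 0.0147), and UGT75C1, UF3GT and UGT78D2 were at 2, 3 and 5, with a family median of -0.09. UF3GT, UGT78D2 and UGT75C1 were selected on these signals, so nothing is read from their places. UGT84A1, which makes glucose esters of hydroxycinnamic acids, was the 1 family member called in these comparisons.

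Genes next to the 5 in the RefSeq gene order were looked up as well. Among 7 measured neighbours within 2 places, 0 were called between ubc13A and Col-0 at either supply. Of all probe sets 0.0484% were called without Fe and 0.0132% with Fe. At an unadjusted p under 0.05 in limma only UGT78D3 passed, without Fe, at a mean signal of 4.46. Of the 22746 probe sets 2524 passed so without Fe and 2238 with Fe, and nothing is read from these counts. AT5G17040, another glycosyltransferase gene beside UGT78D2, differed by -0.57 without Fe and -0.73 with Fe (SE 0.36 each, limma adjusted p = 0.595 and 0.527). U2AF35B near DFR differed by 0.08 without Fe and -0.05 with Fe (SE 0.17 each).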

How the data were processed

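The deposited values are 1 signal intensity per probe set and array on a linear scale, from 0 to 36319.7; the labels' protocols give RNeasy extraction and biotin labelling by in vitro transcription, and the sources used here do not name the software that summarised probes. No detection calls were used. Of 22810 probe sets, 64 controls were set aside and 22746 tested. GEO's platform annotation named 1 gene for 13513, several for 503 and none for 8730; 13436 matched RefSeq (TAIR10.1), used for names and gene order. limma 3.58.1 (R 4.3.3) was fitted to log2(signal + 16) on all 18 arrays with 6 group means, with Benjamini-Hochberg adjustment over all probe sets, and was tested on simulated data. The 9 planned comparisons were joined by 2 added later, ubc13A against CsUBC13-OE at each supply.

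The genes, the lists and the comparisons were chosen with earlier results of these data known. Named besides the 5 were, per pathway list, called genes or otherwise up to 4 by mean signal, the 10 genes most like DFR, and the 5 whose deviations went most with those of the 5. Same-numbered arrays deviated together (every r over 0.1) only in Col-0 without and with Fe (0.26, 0.11 and 0.15) and in CsUBC13-OE and Col-0 without Fe (0.30, 0.20 and 0.11); this comes from the data, as no label pairs them. Alternatives were pseudocounts of 1 and 64, quantile normalization, centring on the array median, fitting only the groups compared, leaving out the dimmest 40% of probe sets, a trended robust prior, a replicate block and each array left out.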

Additional observations from a re-analysis of the deposited data

How the results depend on the processing

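Of 808 values of single anthocyanin genes under an alternative, 15 moved by at least the spread between arrays, and of 166 medians of the 5 genes 3 did. Part of these values could not move. The trended robust prior, the replicate block, the fit of only the groups compared and the cut of the dimmest 40% leave a gene's log2 difference unchanged in this balanced design. That cut kept 3 of the 5 genes, without AT5MAT and UF3GT, so its medians are of 3 genes. No value larger than its SE changed sign. The median between ubc13A and Col-0 was -0.83 without Fe and -0.95 with Fe at a pseudocount of 64. Leaving out 1 array gave -1.52 to -1.07 without Fe and -1.63 to -0.98 with Fe, the last without Col-0 with Fe replicate 2. The DFR difference without Fe was -3.91 at a pseudocount of 1, -1.75 at 64, and -3.37 to -2.48 with 1 array left out. DFR was called by limma there in 6 of 26 settings: quantile normalization, without the dimmest 40%, pseudocount 64, the trended robust prior, the replicate block, and without ubc13A without Fe replicate 3. UF3GT was called between ubc13A and Col-0 with Fe in 2 of 26 (pseudocount 64, the trended robust prior), and AT5MAT for the Fe response of ubc13A in 1 of 26 (without ubc13A with Fe replicate 2). AT5MAT and UF3GT were not in the fit without the dimmest 40%, so neither could be called there. Why these calls differ was not tested, and they are no test of genes chosen on these signals. Over all probe sets, the calls between ubc13A and Col-0 numbered 11 without Fe and 3 with Fe, with 0 at both supplies when only the arrays of the groups compared were fitted (fewer residual degrees of freedom), 17 and 10 after centring on the array median, and at most 131 and 38 without the dimmest 40%. Between ubc13A and CsUBC13-OE they were 11 at each supply, with 2 without Fe and 0 with Fe in that smaller fit and up to 58 and 65 with the trended robust prior. Fe responses called 847 in ubc13A, 984 in CsUBC13-OE and 970 in Col-0, and in the smaller fit 419, 438 and 595. With the replicate block the medians were -1.24 without Fe and -1.38 with Fe, unchanged by construction. All probe sets called with it in ubc13A against Col-0 without Fe numbered 50, against 11 without the block. Of the 5 other pathway genes 0 were called, as under every other alternative run. The cut of the dimmest 40% left out dim ones such as BAN and UGT78D3. In the 2 comparisons whose numbers pair, the block changed no call of the 5 genes or of the other pathway genes. Signals at or under the pseudocount of 16 carry little information, and 42 listed pathway genes were not analysed here.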
